A study of Homo sapiens with 8 samples.

Results

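The cyclins and cyclin-dependent kinases (CDKs) described here are 10 genes picked by name: the cyclins CCND1, CCND3, CCNE1, CCNE2, CCNA2 and CCNB1 and the kinases CDK1, CDK2, CDK4 and CDK6. All 10 had a row among the 58302 genes of the deposited count table, and all 10 were among the 14133 genes with enough counts to be tested. RNA sequencing measured their transcripts in DLD1 cells, an established human colorectal cancer line. The OE-WT cells stably carried a lentiviral construct of wild-type TRMT6/61A, the enzyme complex that places N1-methyladenosine on tRNA, and the CTRL cells stably carried the empty vector. No age, time point or drug treatment separated the groups, and cells with the catalytically inactive enzyme were not analysed here. Each group had 2 libraries, and the labels do not say whether these came from separate cultures, so the p-values measure only the spread between these libraries.

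Cyclins are the regulatory subunits that switch CDKs on, and the order in which they appear and are destroyed sets the order of the cell cycle. D-type cyclins pair with CDK4 and CDK6 early in G1 and begin the phosphorylation of RB, which holds E2F transcription factors in check; E-type cyclins pair with CDK2 at the entry into S phase. Cyclin A2 acts with CDK2 in S phase and with CDK1 later, and cyclin B1 with CDK1 drives mitosis. CCND1 is a Wnt-responsive gene in the colon, where that pathway is commonly active in tumours.

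The table held between 10327498 and 12379671 counts per library. The overexpressed genes were read first: TRMT6 was 3.62-fold and TRMT61A 2.31-fold higher in the OE-WT libraries, with adjusted p = 8.5e-13 and 1.9e-10. All 8 markers of colon epithelial cells had enough counts to be tested, with a summed level of 11480 and 11770 CPM (counts relative to the TMM-scaled size of the library) at the ends of the OE-WT range and 10120 and 10340 at those of CTRL. KRT8 and KRT18 made up most of this sum, while VIL1 and LGALS4 reached at most 4.53 and 1.21 CPM. The markers split in direction, with 2 called higher and 2 called lower in OE-WT cells. The 5 leukocyte markers summed to at most 0.403 CPM in any library and the 5 fibroblast markers to at most 3.22, with COL1A2 and DCN at 0 throughout. The 4 endothelial markers summed to at most 2.33 CPM, with CDH5 and KDR at 0. Over all genes, 9.44% of those tested rose in OE-WT cells (adjusted p below 0.05) and 11.6% fell. Of these calls 44.8% were higher, a share that fell to 23.0% where libraries were scaled by their total alone. That scaling also moved the median log2 fold change of all genes tested from 0.01 to -0.08.

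The promoters of 4 members are shown first. Of these genes CDK4 was called higher in OE-WT cells. CCNB1 had its OE-WT values below those of CTRL cells and CCNA2 above them, but neither was called, and the CDK1 values overlapped. A link between the motifs and these differences was not tested. The RefSeq table (GRCh38.p14) held promoter windows for 7 of the 10 members. The 250 bases before the start are printed 5′ to 3′ on the gene's strand, with matches to the 5 motifs searched in capitals. The motifs were the CCAAT box (CCAAT), the cell cycle homology region (CHR, TTTGAA), the cAMP response element (TGACGTCA), the E-box (CACGTG) and an E2F site written as TTTCCCGC, TTTGGCGC, TTTCGCGC or TTTGCCGC, on both strands; 0 matches overlapped another.
CDK4 (chr12:57752311-57752560, reverse strand): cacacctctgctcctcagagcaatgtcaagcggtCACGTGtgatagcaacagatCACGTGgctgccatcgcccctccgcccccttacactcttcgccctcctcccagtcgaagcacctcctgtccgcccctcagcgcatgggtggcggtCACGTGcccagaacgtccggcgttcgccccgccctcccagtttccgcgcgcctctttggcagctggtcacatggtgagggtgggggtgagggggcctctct
CCNB1 (chr5:69166900-69167149, forward strand): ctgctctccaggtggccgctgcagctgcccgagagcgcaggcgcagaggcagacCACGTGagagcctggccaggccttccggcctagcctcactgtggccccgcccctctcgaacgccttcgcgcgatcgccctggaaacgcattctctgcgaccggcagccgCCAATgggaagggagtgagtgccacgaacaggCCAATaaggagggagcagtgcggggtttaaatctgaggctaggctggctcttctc
CCNA2 (chr4:121823884-121824133, reverse strand): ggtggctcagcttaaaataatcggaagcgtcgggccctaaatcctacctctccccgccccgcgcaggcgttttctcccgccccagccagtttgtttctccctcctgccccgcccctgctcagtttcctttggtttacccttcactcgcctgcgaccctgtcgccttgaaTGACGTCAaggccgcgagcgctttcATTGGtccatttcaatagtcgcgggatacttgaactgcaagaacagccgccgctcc
CDK1 (chr10:60778228-60778477, forward strand): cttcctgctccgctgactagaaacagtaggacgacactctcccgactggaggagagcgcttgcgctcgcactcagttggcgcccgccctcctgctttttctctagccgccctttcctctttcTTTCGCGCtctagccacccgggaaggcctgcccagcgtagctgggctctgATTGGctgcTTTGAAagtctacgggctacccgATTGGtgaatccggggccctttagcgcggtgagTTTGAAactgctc

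CDK4 held 3 E-boxes, with first bases 216, 196 and 101 bases before the start, and CCNB1 held 1, at 196 bases. E-box letters were present in 6.35% of the 35116 windows of this length. CCNA2 held the cAMP response element 81 bases before its start, a motif in 1.65% of windows, and a CCAAT box at 56 bases. CCNB1 and CDK1 each held 2 CCAAT boxes, whose letters were in 32.0% of windows. The CHR letters occurred at 69 and 13 bases in CDK1, against 13.3% of windows, and the E2F letters once, at 128 bases, against 2.79%. The CDK1 window printed is the one before 60778478, the start of the canonical transcript. Another CDK1 window, before 60778331, held 1 CHR, 1 CCAAT box and 0 E2F sites, so these matches depend on the start used. These matches describe letters, not binding. Only the exact letters given above were searched, so a variant of a motif was not counted. The windows of CCND3, CCNE1 and CDK6 nearest the annotated start held 1 match between them, a CCAAT box in CCND3.

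CCND1, CCNE2 and CDK4 rose in OE-WT cells, by 18.5%, 66.0% and 17.2%. These were 3 of the 10 cyclins and CDKs past an adjusted p of 0.05 and higher, where 9.44% of all tested genes were, and 0 were lower, where 11.6% were. The 10 genes were chosen with earlier results of these data known. The shares over all genes given here are therefore a background and not a test of the group. By edgeR's quasi-likelihood test, 6 of the 10 had an unadjusted p below 0.05 and a positive log2 fold change, namely CCND1, CCND3, CCNE2, CCNA2, CDK4 and CDK6, where 16.4% of all genes did, and 1, CCNB1, had a negative one, where 17.5% did. DESeq2 called 1 member higher, CCND1, and 0 lower. With library totals alone 1 was higher, CCNE2, and 1 lower, CCNB1. None passed an absolute log2 fold change of 1 with an unadjusted p below 0.05, a rule that 3.15% of genes met. The median log2 fold change was 0.22 over the members and 0.01 over all genes tested. The libraries of the groups did not overlap for 9 members: 8 lay higher in OE-WT cells, where 29.9% of genes did, and CCNB1 lay lower, where 30.2% did. With libraries scaled by their total alone, 5 members lay higher (20.2% of genes) and CCNB1 lower (39.5%).

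**Figure D1:**
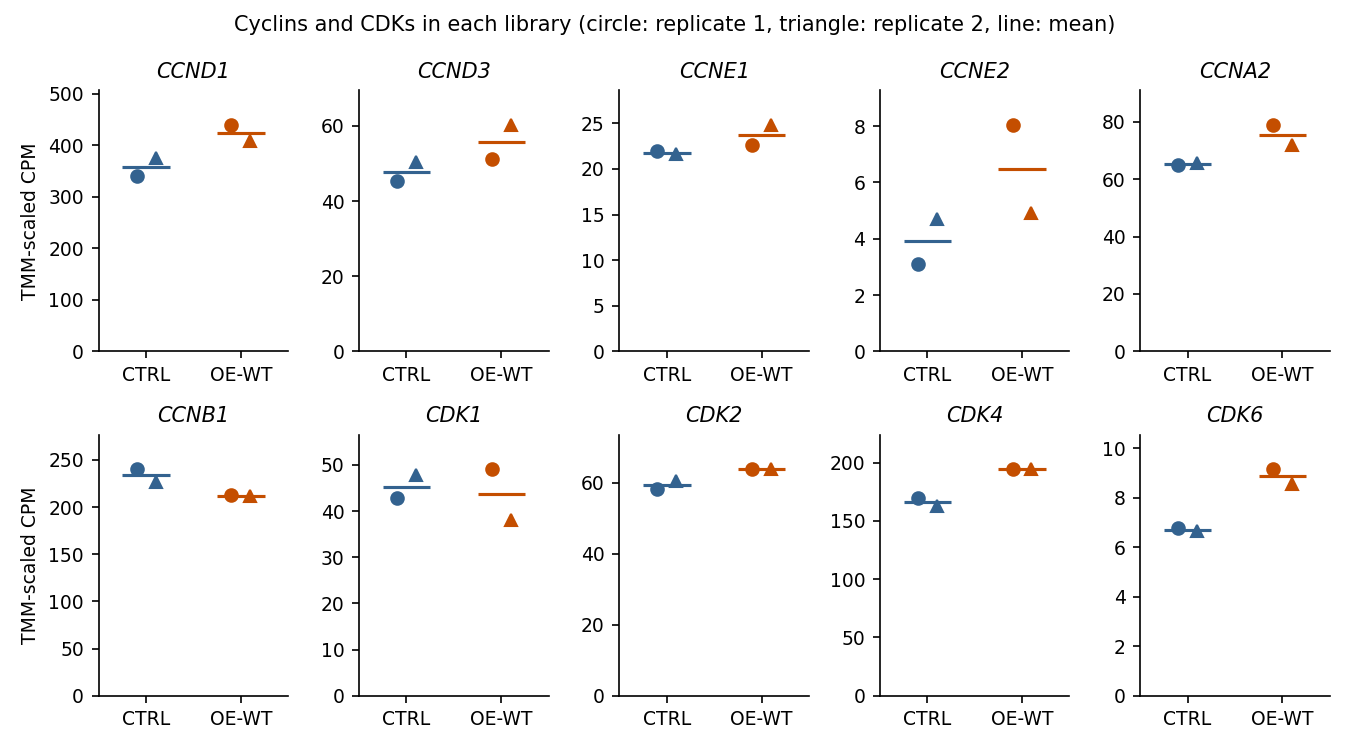
TMM-scaled CPM (vertical axes, from 0) of each of the 10 genes in the 2 CTRL and 2 OE-WT libraries; circles are replicate 1, triangles replicate 2 and lines the group means. CDK4 separates cleanly, with 194.8 and 194.4 CPM in OE-WT cells against 169.4 and 162.6 in CTRL cells, while the CDK1 values of the groups interleave.

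The D-type cyclins, the partners of CDK4 and CDK6, act first in the cycle; coordinates are those of GENCODE release 44 on GRCh38. CCND1 (ENSG00000110092, chromosome 11, 69641156 to 69654474) had 440.2 and 408.7 CPM in OE-WT cells and 340.9 and 375.8 in CTRL cells. Both OE-WT values lay above both CTRL values. The mean was 424.5 ± 22.3 against 358.3 ± 24.7 CPM (SD, n = 2 each), a log2 fold change of 0.24 (standard error 0.07, 95% interval 0.10 to 0.39, adjusted p = 0.013). CCND1 lost the call without OE-WT replicate 1 (adjusted p = 0.10) and without CTRL replicate 1 (0.17), and where libraries were scaled by total alone (0.21).

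CCND3 (ENSG00000112576, chromosome 6, 41934934 to 42050357), the other D-type cyclin tested, had 51.2 and 60.3 CPM in OE-WT cells and 45.2 and 50.4 in CTRL cells. The lower OE-WT library and the higher CTRL library differed by less than 1 CPM. Its log2 fold change was 0.22 (standard error 0.09, 95% interval 0.04 to 0.41, adjusted p = 0.080). CCND3 passed the threshold without OE-WT replicate 1 (log2 fold change 0.34, adjusted p = 0.0088) and without CTRL replicate 2 (0.30, adjusted p = 0.025). The remaining D-type cyclin, CCND2, is named after its values were seen: it had 0 and 1 counts in OE-WT cells and 1 and 0 in CTRL cells, and was not tested.

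CDK4 (ENSG00000135446, chromosome 12, 57747727 to 57756013), a kinase partner of cyclin D, had 194.8 and 194.4 CPM in OE-WT cells and 169.4 and 162.6 in CTRL cells. The groups were apart by several times their spread, and the mean was 194.6 ± 0.31 against 166.0 ± 4.80 CPM (SD, n = 2 each). The log2 fold change was 0.23 (standard error 0.06, 95% interval 0.10 to 0.36, adjusted p = 0.013). It lost the call without CTRL replicate 2 (adjusted p = 0.091), with library totals alone (0.25) and with DESeq2 (0.068). On the opposite strand, the tetraspanin gene TSPAN31 covers 1369 exonic bases of CDK4, 44.2% of them. TSPAN31 had 81.4 and 80.2 CPM in OE-WT cells and 80.6 and 74.6 in CTRL cells (log2 fold change 0.06, adjusted p = 0.62). The strand setting of the counting is not given in the sources used here, so reads from the shared bases may not be told apart, and their part in the CDK4 value was not tested.

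CDK6 (ENSG00000105810, chromosome 7, 92604921 to 92836573), which shares cyclin D with CDK4, had 9.17 and 8.55 CPM in OE-WT cells and 6.76 and 6.66 in CTRL cells, from 82 to 91 counts per library. Both OE-WT values lay above both CTRL values. The log2 fold change of 0.40 exceeded that of CDK4, but its standard error was 0.17 and its adjusted p was 0.11 (95% interval 0.04 to 0.76). CDK6 did not pass in any of the 13 alternatives.

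**Figure D2:**
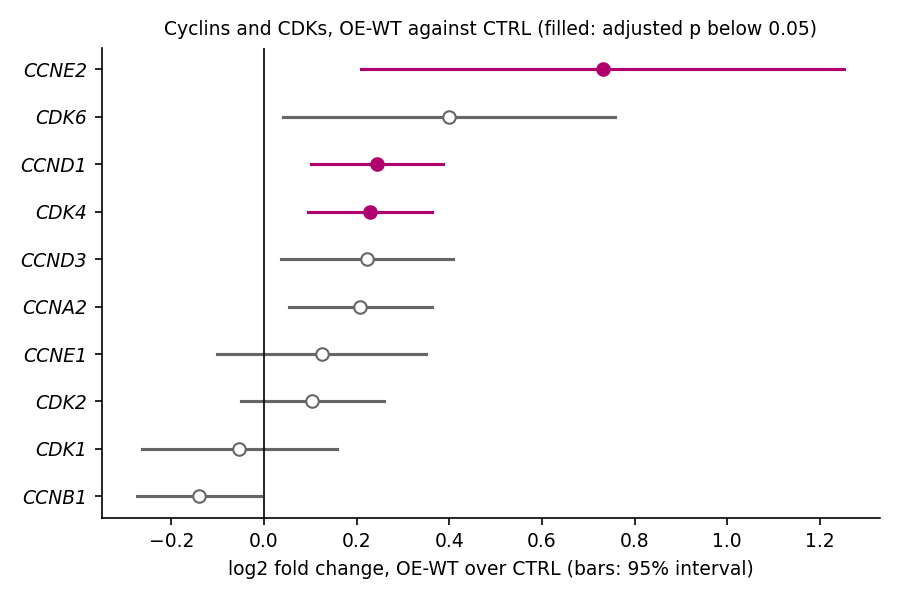
Log2 fold change of OE-WT over CTRL (horizontal axis) with 95% intervals for the 10 genes, ordered by value; filled points have an adjusted p below 0.05. CCNE2 stands farthest out at 0.73 with the widest interval, 0.21 to 1.25, and CCNB1 is the lowest at -0.14.

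The E-type cyclins activate CDK2 at the start of S phase. CCNE2 (ENSG00000175305, chromosome 8, 94879770 to 94896678) had 80 and 50 counts in OE-WT cells and 40 and 58 in CTRL cells, which is 8.06 and 4.91 against 3.11 and 4.71 CPM. The groups barely separated, since OE-WT replicate 2 lay just above CTRL replicate 2. Its log2 fold change was 0.73 (standard error 0.25, 95% interval 0.21 to 1.25, adjusted p = 0.042). Without OE-WT replicate 1 it was 0.34 (adjusted p = 0.50) and without CTRL replicate 1 it was 0.46 (adjusted p = 0.28). Without OE-WT replicate 2 it was 1.04 and without CTRL replicate 2 it was 1.06, both called. The call was also lost with DESeq2 (adjusted p = 0.20) and without the filter on low counts (0.10). INTS8, an Integrator subunit gene on the opposite strand, covers 1629 exonic bases of CCNE2 (37.0%). INTS8 had 11.4 and 9.14 CPM in OE-WT cells and 8.47 and 8.12 in CTRL cells (log2 fold change 0.30, adjusted p = 0.21), and its part in the CCNE2 value was not tested.

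CCNE1 (ENSG00000105173, chromosome 19, 29811991 to 29824312) had 22.6 and 24.9 CPM in OE-WT cells and 21.9 and 21.6 in CTRL cells. These values were narrowly apart, and the log2 fold change of 0.12 (standard error 0.11, 95% interval -0.10 to 0.35) had an adjusted p of 0.45. CDK2 (ENSG00000123374, chromosome 12, 55966781 to 55972789), the kinase of both E-type cyclins, had 64.0 and 63.8 CPM in OE-WT cells and 58.2 and 60.6 in CTRL cells. Its log2 fold change was 0.10 (standard error 0.07, 95% interval -0.05 to 0.26, adjusted p = 0.35). Neither gene passed in any of the 13 alternatives. With library totals alone, the CCNE1 and the CDK2 groups overlapped.

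CCNA2 (ENSG00000145386, chromosome 4, 121816444 to 121823883), cyclin A2 of S phase and G2, had 79.0 and 71.7 CPM in OE-WT cells and 64.8 and 65.6 in CTRL cells. Every OE-WT value exceeded every CTRL value. The log2 fold change was 0.21 (standard error 0.07, 95% interval 0.05 to 0.36) with an adjusted p of 0.051, just outside the threshold. It passed with edgeR's exact and likelihood ratio tests and without OE-WT replicate 2 (adjusted p = 0.027), and was at 0.11 (adjusted p = 0.33) with the GC trend removed. EXOSC9, an exosome subunit gene on the opposite strand, shares 254 exonic bases (9.24%) with CCNA2 and had a log2 fold change of 0.22 (adjusted p = 0.14).

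CCNB1 (ENSG00000134057, chromosome 5, 69167135 to 69178245), the cyclin of mitotic entry, had 212.4 and 211.6 CPM in OE-WT cells and 240.6 and 226.5 in CTRL cells. It was the one member with both OE-WT values below both CTRL values. The log2 fold change was -0.14 (standard error 0.06, 95% interval -0.27 to -0.01, adjusted p = 0.13). CCNB1 passed as lower with library totals alone (log2 fold change -0.23, adjusted p = 0.038) and with the GC trend removed (-0.24, adjusted p = 0.016).

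CDK1 (ENSG00000170312, chromosome 10, 60778331 to 60794852), the mitotic kinase, had 49.2 and 38.1 CPM in OE-WT cells and 42.8 and 47.7 in CTRL cells. The groups overlapped: the highest and the lowest value both came from OE-WT libraries. Its log2 fold change was -0.05 (standard error 0.10, 95% interval -0.26 to 0.16, adjusted p = 0.76), and it was positive without OE-WT replicate 2 (0.11) or without CTRL replicate 2 (0.03).

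Among the other genes sharing exonic bases with a member were LTO1 (497 bases of CCND1, log2 fold change 0.16, adjusted p = 0.14), ENSG00000258554 and the melanosome gene PMEL (565 and 89 bases of CDK2). ENSG00000258554 had a log2 fold change of 0.11 (adjusted p = 0.67) and PMEL one of -0.17 (adjusted p = 0.43). The shared bases numbered 86 for CDK6-AS1 and CDK6, 24 for ENSG00000223946 and CCND3, and 4 for ENSG00000272509 and CCNE2; these 3 genes had at most 6 counts in a library and were not tested. All of these genes lie on the strand opposite to the member. CCNE1, CCNB1 and CDK1 share 0 exonic bases with another gene.

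To compare levels between genes, CPM were divided by the length of each gene's merged exons in kilobases. In CTRL cells CCNB1 was the highest at 96.0 ± 4.10 CPM per kilobase and CCND1 the next at 75.3 ± 5.20 (SD, n = 2 each). In OE-WT cells CCND1 was at 89.2 ± 4.68 and CCNB1 at 87.1 ± 0.22. The values of this pair overlapped across the 4 libraries, and CCNB1 was the higher in 3 of 4. CDK4 followed at 53.6 CPM per kilobase in CTRL cells and 62.9 in OE-WT cells, then CCNA2 at 23.7 and 27.4, and CDK2 at 15.3 and 16.4. The ranges of these neighbours did not overlap at this length.

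CDK1 (11.6 in CTRL cells, 11.2 in OE-WT cells), CCNE1 (8.84, 9.64) and CCND3 (8.30, 9.68 CPM per kilobase) overlapped one another. CCNE2 (0.889, 1.48) and CDK6 (0.548, 0.724) were the lowest, CCNE2 the higher of the pair in each of the 4 libraries though their ranges overlapped. With the length of the canonical transcript in place of the merged exons, CCNB1 was first in every library and CCND3 stood between the fourth and the seventh place, because its merged exons span 5761 bases and its canonical transcript 2026. That length also placed the mean of CDK4 above that of CCND1 (104.3 against 100.2 CPM per kilobase in OE-WT cells, 89.0 against 84.6 in CTRL cells) and the mean of CDK2 above that of CCNA2 (28.5 against 27.4 in OE-WT cells, 26.5 against 23.7 in CTRL cells).

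Ratios of related genes within a library do not depend on the scaling of that library. On the log2 scale and per merged exon length, CCNA2 to CCNB1 was -1.60 and -1.74 in OE-WT cells and -2.07 and -1.96 in CTRL cells. The groups did not overlap, and the ratio was higher by 0.35 in the OE-WT libraries. CCNB1 remained the more abundant of the pair in every library. CDK6 to CDK4 was -6.39 and -6.48 in OE-WT cells and -6.62 and -6.59 in CTRL cells, a difference of 0.17 with no overlap. An exact two-sided permutation test gave p = 0.33 for both, the smallest that 2 libraries against 2 can give. With so few libraries, separation of the groups does not by itself establish a shift in a ratio.

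The remaining ratios overlapped between the groups. CCNE2 to CCNE1 was -2.32 and -3.16 in OE-WT cells and -3.64 and -3.02 in CTRL cells (difference 0.59, exact permutation p = 0.67). CDK2 to CDK1 was 0.39 and 0.75 in OE-WT cells and 0.45 and 0.35 in CTRL cells (difference 0.17, exact permutation p = 0.67). CCND3 to CCND1 was -3.38 and -3.03 in OE-WT cells and -3.19 and -3.17 in CTRL cells (difference -0.03, exact permutation p = 1.0). In each of these pairs the OE-WT libraries differed from each other by more than the group means did. Leaving out 1 OE-WT library moved the CCNE2 to CCNE1 difference to 0.17 (without replicate 1) or 1.02 (without replicate 2), and leaving out 1 CTRL library to 0.28 or 0.90. The CDK2 to CDK1 difference was -0.01 without OE-WT replicate 2 and 0.35 without OE-WT replicate 1. The CCND3 to CCND1 difference was 0.15 without OE-WT replicate 1 and -0.20 without OE-WT replicate 2.

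**Figure D3:**
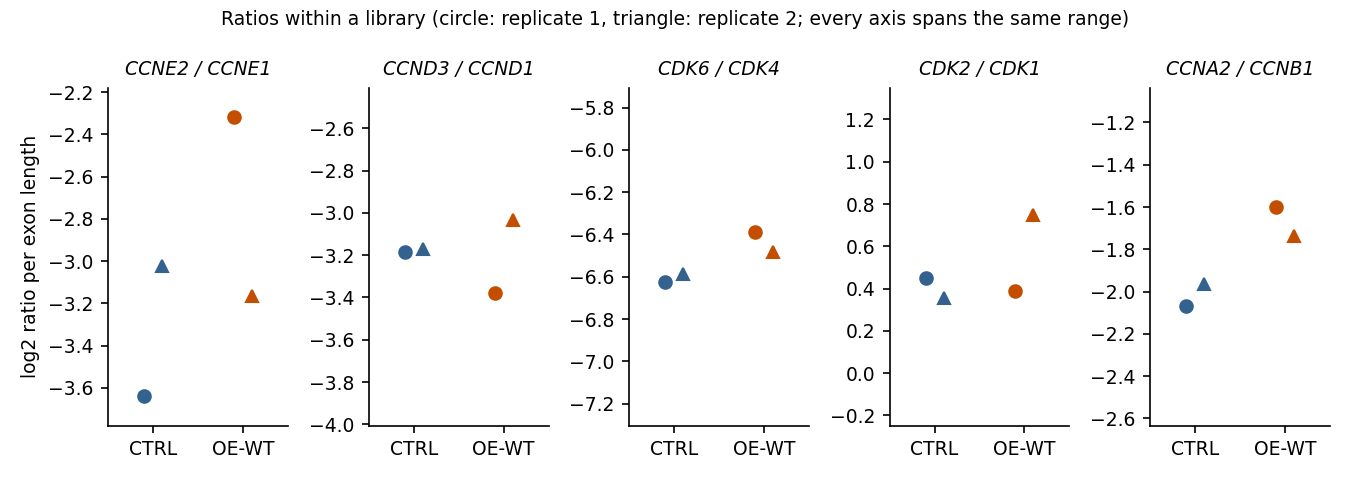
Log2 ratio per merged exon length of 5 gene pairs within each library (vertical axes, each spanning the same range), CTRL and OE-WT side by side; circles are replicate 1 and triangles replicate 2. The groups separate for CCNA2 to CCNB1 (difference 0.35) and CDK6 to CDK4 (0.17) and overlap for the other pairs.

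The study follows codons read by tRNA-Glu-CTC and tRNA-Asp-GTC, namely GAG and GAC, so their share of each member's coding sequence is given as a description of these genes. CCND1 stood apart: 12.5% of its 295 codons were GAG or GAC, above 96.4% of the 11657 coding genes tested, whose median was 6.43%. CDK4 had 7.59% and CCND3 7.53%. CDK6, CCNE1 and CDK2 lay near the median at 6.75%, 6.58% and 6.04%. The late members were at the other end, with 4.63% in CCNA2, 3.93% in CCNB1 and 3.03% in CDK1, the last below all but 7.12% of coding genes; CCNE2 had 3.96%. These shares concern translation, which transcript counts do not measure. Across the transcriptome, the paper reports no simple linear relation of GAG and GAC frequency to the change in translation efficiency.

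The members also differed in GC content, from 34.6% in CCNE2 and 35.4% in CDK1 to 60.0% in CCND3, around a median of 49.0% for coding genes. With a smooth GC trend removed from each library, CCND1 (log2 fold change 0.25, adjusted p = 0.015) and CDK4 (0.25, adjusted p = 0.0080) stayed past the threshold and CCND3 joined them (0.35, adjusted p = 0.0076). CCNE2 fell short at 0.61 (adjusted p = 0.073).

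**Figure D4:**
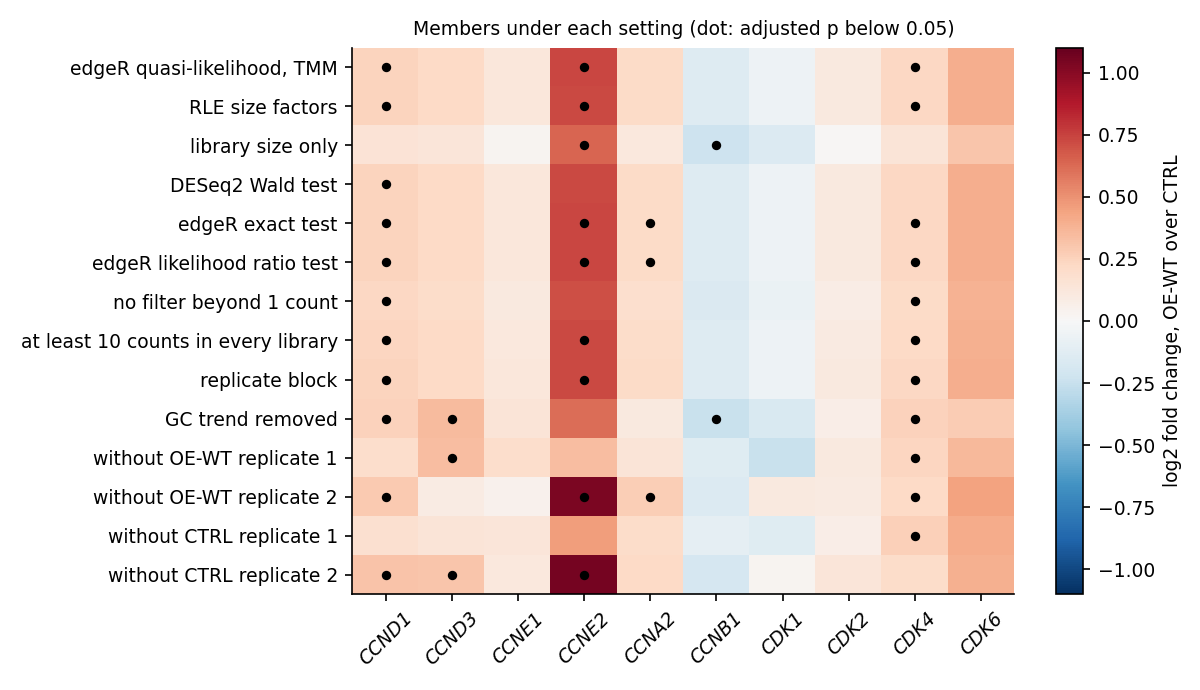
Log2 fold change of each gene (columns, colour scale) under the quasi-likelihood test and 13 alternatives (rows); dots have an adjusted p below 0.05. CCND1 and CDK4 carry a dot in 10 of 13 alternatives each and CCNE2 in 8, while CCNE1, CDK1, CDK2 and CDK6 carry none.

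A list of further cyclins and CDKs, picked by name, numbered 17 genes, of which 11 were tested. Its members, CDK17 and CDK18 among them, were not checked for a role in the cell cycle. CDK17 was higher and CDK18, CCNF and CCNB2 were lower, with a median log2 fold change of -0.16. CCNB2, the second B-type cyclin, had 92.0 and 100.3 CPM in OE-WT cells and 107.5 and 117.0 in CTRL cells (log2 fold change -0.22, adjusted p = 0.032). CCNF, an F-box protein that marks its substrates for destruction, was at -0.26 (adjusted p = 0.025). Both lost the call without OE-WT replicate 1 (adjusted p = 0.26 for CCNB2 and 0.24 for CCNF) and without CTRL replicate 2 (0.23 and 0.12). CDK18 was at -1.28 (adjusted p = 0.0011) and CDK17 at 0.87 (adjusted p = 0.024), both from under 6 CPM; CDK17 lost the call without OE-WT replicate 1 (adjusted p = 0.34) or CTRL replicate 2 (0.079). Of the tested B-type and A-type cyclins, CCNB1 and CCNB2 had both OE-WT values below CTRL, and CCNA2 had them above; CCNB3, named after its values were seen, had 1 count in each library and was not tested.

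Transcriptional cyclins and CDKs, which act on RNA polymerase and splicing and of which CDK7 also serves the cycle, had 2 of 16 tested members higher (CDK8, log2 fold change 0.49, adjusted p = 0.046; CDK12, 0.30, adjusted p = 0.049) and 2 lower (CCNL2, -0.45, adjusted p = 0.0025; CDK7, -0.34, adjusted p = 0.032). The median was 0.09. CDK8 and CDK12 lost the call without OE-WT replicate 1 (adjusted p = 0.36 and 0.23) or CTRL replicate 1 (0.31 and 0.39). CDK7 lost it without OE-WT replicate 1 (0.12), OE-WT replicate 2 (0.050) or CTRL replicate 2 (0.26). Among the 11 genes that phosphorylate, dephosphorylate or dock on CDKs, CDC25A, the phosphatase that activates CDK2, was higher (0.33, adjusted p = 0.0061). CKS2, a docking subunit, was lower (-0.24, adjusted p = 0.015), as was CDK7, the CDK-activating kinase, which belongs to both lists. The median was -0.0027. CDC25A lost the call without CTRL replicate 1 (adjusted p = 0.064), and CKS2 without CTRL replicate 1 (0.17) or OE-WT replicate 2 (0.068).

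The CDK inhibitors had 0 of 8 members higher and 1 lower, CDKN2A, with 4 and 6 counts in OE-WT cells and 21 and 14 in CTRL cells (log2 fold change -1.46, adjusted p = 0.036, called in 6 of 11 alternatives and not without OE-WT replicate 1, OE-WT replicate 2 or CTRL replicate 1, with adjusted p = 0.27, 0.097 and 0.34). The median of these 8 was -0.07. CDKN1A was not called (log2 fold change -0.03, adjusted p = 0.87). By Western blot the paper reports more p16 and p21 protein, the products of CDKN2A and CDKN1A, in OE-WT cells. The counts here measure RNA, which is a different quantity.

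The list of RB family and E2F genes had 4 of 13 members higher and 0 lower, with a median of 0.26. All 4 were E2F genes or a dimer partner, and no gene of the RB family, which cyclin D and CDK4 phosphorylate, was called. DESeq2 called 2 of these 4, TFDP1 and E2F3, and not E2F2 (adjusted p = 0.075) or E2F7 (0.17). TFDP1, the E2F dimer partner, had 158.8 and 148.9 CPM in OE-WT cells and 113.7 and 122.7 in CTRL cells (log2 fold change 0.38, adjusted p = 0.00041). E2F3 was at 0.52 (adjusted p = 0.0043), E2F2 at 0.52 (adjusted p = 0.0086) and E2F7, a repressor of the family, at 0.63 (adjusted p = 0.025). E2F3 lost the call without CTRL replicate 1 (adjusted p = 0.057), and E2F2 without OE-WT replicate 2 (0.059) or CTRL replicate 2 (0.059). E2F7 lost it without OE-WT replicate 1 (0.29), CTRL replicate 1 (0.056) or CTRL replicate 2 (0.070). E2F1 and RB1 did not pass, with log2 fold changes of 0.06 and 0.28; both are named after their values were seen.

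The genes of cyclin destruction had 4 of 25 members higher and 2 lower, with a median of 0.07. SKP2, which recruits the inhibitor CDKN1B and others to the SCF ubiquitin ligase, had 28.7 and 26.5 CPM in OE-WT cells and 16.9 and 17.1 in CTRL cells. Its log2 fold change of 0.70, with adjusted p = 9.9e-05 and a standard error of 0.11, was the largest of this list. CDC27, a subunit of the anaphase-promoting complex, was at 0.61 (adjusted p = 0.0030), while FZR1, which activates that complex in G1, was at -0.36 (adjusted p = 0.0024) and the subunit ANAPC11 at -0.30 (adjusted p = 0.0036). With the GC trend removed FZR1 was at -0.17 and lost the call (adjusted p = 0.12). ANAPC7 and ANAPC13 were the other subunits called higher. ANAPC7 lost the call without OE-WT replicate 2 (adjusted p = 0.072) or CTRL replicate 1 (0.28), and ANAPC13 with any of the 4 libraries left out (0.11 to 0.14).

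Of the 7 genes in the list labelled late cell cycle transcription factors, FOXM1, a driver of G2 and mitotic genes, was the one called. It had 182.8 and 181.0 CPM in OE-WT cells and 149.2 and 143.0 in CTRL cells (log2 fold change 0.32, adjusted p = 0.0013). The list also holds RBBP4 and LIN genes, and its members were not checked for being transcription factors. The median of this list was 0.15. TFDP1, SKP2, CDC27, FOXM1, CDK18, CCNL2 and ANAPC11 each passed in all 13 alternatives, which none of the 10 cyclins and CDKs did. With DESeq2 the calls of CDK17 (adjusted p = 0.17), CCNB2 (0.17), CCNF (0.18), CDK8 (0.22), CDK12 (0.26), CDK7 (0.21), CDC25A (0.073), CKS2 (0.079), ANAPC7 (0.14) and ANAPC13 (0.26) were lost. With library totals alone those of CDK8 (adjusted p = 0.076), CDK12 (0.17), CDC25A (0.054), ANAPC7 (0.096) and ANAPC13 (0.21) were. These counts stand beside 9.44% of all genes higher and 11.6% lower, and the lists too were chosen with earlier results of these data known.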

How the data were processed

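RNA sequencing was analysed in 4 DLD1 libraries, 2 OE-WT and 2 CTRL, each listed as 2 lanes in the labels and given as 1 column of the count table. The deposited values are whole-number counts of reads per gene, not normalized by the authors. The paper's methods name Cutadapt, HISAT2 and HTSeq; the submitters' processing notes name HISAT2 2.2.1, featureCounts 2.0.0 and DESeq2 1.34.0, with GRCh38. The labels describe poly(A) selection with a stranded kit and 2 replicates, and the methods rRNA removal and 3 biological replicates. The annotation release used for counting is not given in the sources used here.

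Genes with enough counts by edgeR's filter (minimum 10) were normalized by TMM and tested with the quasi-likelihood test of edgeR 4.0.16 in R 4.3.3, with no replicate block, and p-values were adjusted by Benjamini-Hochberg over 14133 genes. CPM use TMM-scaled library sizes, and standard errors are the log2 fold change over the square root of F. Ratios used counts plus 0.5. A count of 0 allows up to 3 counts, 0.302 CPM in the library with the highest such limit, for counting error only. GENCODE release 44 gave symbols for 57532 identifiers, coordinates, lengths and codons; GC content was known for 14051 of the genes tested. The test was checked on simulated counts of this comparison with 200 of 14133 genes changed. Of these 200 genes 92.3% were recovered, and 5.73% of calls were unchanged genes. Recovery of differences as small as those of the cyclins and CDKs was not tested.

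All 10 members are named with every library's value, and in the other lists the called genes with up to 4 given values, those of smallest adjusted p. The members and lists were chosen with earlier results of these data known. Alternatives were RLE size factors, library totals, the likelihood ratio and exact tests of edgeR, DESeq2 1.42.0, 2 other filters, a replicate block, a GC trend (lowess, span 0.3) removed and each library left out; those for the other lists and for non-overlapping groups were chosen after seeing the data. Figures used Python 3.11.15 and matplotlib 3.10.9. Ribosome profiling and tRNA data were not analysed here.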

Additional observations from a re-analysis of the deposited data

How the results depend on the processing

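The calls among the cyclins and CDKs changed with the processing. The 3 members called higher became 1 with library totals alone (CCNE2) and 1 with DESeq2 (CCND1). The 0 called lower became 1, CCNB1, with library totals alone and with the GC trend removed. The number of genes called over the whole table went from 2976 to 1373 with DESeq2. With each library left out in turn, where the lone library is assumed to vary like the other group, between 1903 and 2852 genes were called, between 1 and 4 members were higher, and between 0 and 1 passed the study's thresholds (CCNE2, without OE-WT replicate 2 or without CTRL replicate 2). Only CDK1 changed direction, ranging from -0.24 to 0.11 as libraries were left out, and no other member did under any of the 13 alternatives. The cause of these changes was not tested.

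Same-numbered libraries did not deviate together (correlation -0.07). That value cannot show whether they were cultured or prepared together, which the labels do not say. The replicate block gave 2658 genes and the same 3 members higher, 0 lower and 0 past the study's thresholds; CCNB2, CDK12 and ANAPC13 lost their calls under it (adjusted p = 0.065, 0.059 and 0.083). With 2 libraries per group, leaving out 1 cannot move a difference in a ratio by more than the SD between replicates, and another length cancels in it, so these settings say nothing of its stability. Differences ranged from 0.17 to 1.02 for CCNE2 to CCNE1, from -0.20 to 0.15 for CCND3 to CCND1, from -0.01 to 0.35 for CDK2 to CDK1, from 0.12 to 0.22 for CDK6 to CDK4 and from 0.28 to 0.41 for CCNA2 to CCNB1. CCNE2 and CDK6 had 40 to 91 counts per library, the fewest among the members.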
